A study of Mus musculus with 3 samples.

Results

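Maternally methylated imprinted genes are described here as 8 genes, Gnas, Grb10, Igf2r, Airn, Slc38a4, Peg3, Peg10 and Plagl1, in mouse sperm. Every 500 bp window that the deposited methylation report annotated to 1 of these symbols was taken once. This gave 42 windows of the 143198 in the table. The windows numbered 12 in Slc38a4, 7 in Igf2r, 6 in Airn, 5 each in Grb10 and Peg3, 4 in Gnas, 2 in Peg10 and 1 in Plagl1.

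DNA came from purified sperm of the cauda epididymis of C57BL/6 mice aged 14 weeks, and methylated fragments were enriched with the methyl-CpG-binding protein MBD2 before sequencing (MBD-seq). The vehicle control mice received saline. The others received doxorubicin (DXR), an anthracycline that poisons topoisomerase II, at 0.02 mg/kg (low dose) or 0.2 mg/kg (high dose). All injections were intraperitoneal, 2 a week for 5 weeks from 8 weeks of age, and sperm was taken 4 days after the last. Each group had 1 library, the sources used here do not give the number of mice behind it, and so no difference below has a replicate check, a test or an error. In a bulk preparation, less methylation in all sperm and a different share of other cells cannot be told apart.

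Genomic imprinting restricts expression of a gene to 1 parental copy. At the maternally methylated loci, DNA methylation is laid down in the oocyte over a CpG-rich control region, usually at a promoter, while the same region stays unmethylated in sperm; after fertilization the zinc finger protein ZFP57 helps to keep the mark through binding of a methylated TGCCGC motif. The rest of such a gene is methylated in sperm as most gene bodies are. Sperm of the cauda epididymis is mature and does not divide, so that its methylation was set earlier, in germ cell development.

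The values below are RMS, the authors' methylation score per window and library, which the headers do not spell out, and RPM, the read density that they scaled to library size. No window of the table had RMS of 1 or less in all 3 libraries, which makes it a filtered list, and windows that are missing from it are not analysed here. RMS divided by AMS, the other deposited score, was a multiple of 0.2 in every window, and 5 times this quotient was read as the number of CpGs. In 1401 windows that RefSeq promoter sequence covers at least in part, the sequence held more CpGs than this number in 0, and in 4 windows covered over 475 bp or more it was equal in 3 and short by 1 in the other. CpG numbers of windows below are of this kind. Median RMS over all windows was 1.80 in control sperm, 1.67 after the low dose and 1.57 after the high one.

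The first question was whether the annotated starts of these genes had any listed window. Not every start carries the oocyte mark; the mark within Igf2r, for example, lies at the start of Airn. RefSeq sequence was available for 13 annotated starts of 7 of the genes. A listed window lay within 1000 bp of 2 of the 13, against 2807 (8.55%) of 32817 starts genome-wide. The sequences before 6 of these starts are shown because they differ in CpG content and because 2 of them are the starts with a window nearby. They are from RefSeq (GRCm38.p6), cover the 250 bases before the start, read 5′ to 3′ along the gene, and carry each CpG in capitals.
Plagl1 (chr10:13090582-13090831, plus strand): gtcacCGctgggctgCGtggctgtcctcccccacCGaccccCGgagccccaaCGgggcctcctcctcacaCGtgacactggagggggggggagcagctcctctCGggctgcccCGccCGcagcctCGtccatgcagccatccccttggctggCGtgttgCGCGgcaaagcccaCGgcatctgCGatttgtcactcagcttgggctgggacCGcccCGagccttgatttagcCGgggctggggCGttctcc
Gnas (chr2:174327499-174327748, plus strand): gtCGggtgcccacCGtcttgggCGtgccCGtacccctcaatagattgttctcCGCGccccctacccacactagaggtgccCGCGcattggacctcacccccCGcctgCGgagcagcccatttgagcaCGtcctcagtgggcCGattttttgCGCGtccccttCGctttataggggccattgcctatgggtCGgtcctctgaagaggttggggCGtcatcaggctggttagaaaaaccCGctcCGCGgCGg
Peg3 (chr7:6730420-6730669, minus strand): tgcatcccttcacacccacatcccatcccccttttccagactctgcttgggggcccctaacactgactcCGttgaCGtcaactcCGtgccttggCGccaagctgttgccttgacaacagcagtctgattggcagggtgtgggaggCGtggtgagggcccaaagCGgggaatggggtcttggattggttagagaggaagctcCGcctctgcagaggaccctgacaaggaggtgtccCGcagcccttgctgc
Airn (chr17:12741061-12741310, plus strand): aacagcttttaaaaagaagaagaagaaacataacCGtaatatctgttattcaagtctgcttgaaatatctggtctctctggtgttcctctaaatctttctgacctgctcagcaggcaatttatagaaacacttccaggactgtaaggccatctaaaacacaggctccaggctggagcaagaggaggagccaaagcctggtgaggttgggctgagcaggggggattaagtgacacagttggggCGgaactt
Grb10 (chr11:12027972-12028221, minus strand): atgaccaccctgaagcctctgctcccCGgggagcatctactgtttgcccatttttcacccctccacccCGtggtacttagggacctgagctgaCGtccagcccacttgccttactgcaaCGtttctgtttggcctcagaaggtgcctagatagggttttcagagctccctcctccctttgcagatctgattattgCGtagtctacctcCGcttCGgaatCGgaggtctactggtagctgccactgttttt
Slc38a4 (chr15:97020360-97020609, minus strand): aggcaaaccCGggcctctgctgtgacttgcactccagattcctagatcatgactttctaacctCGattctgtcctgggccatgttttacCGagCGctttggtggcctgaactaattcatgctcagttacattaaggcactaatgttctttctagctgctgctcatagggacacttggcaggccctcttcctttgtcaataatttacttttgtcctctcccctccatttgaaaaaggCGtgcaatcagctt

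The Gnas sequence precedes an internal start of the gene and holds 21 CpGs; that of Plagl1 holds 19, those of Peg3 and Grb10 8 each, that of Slc38a4 5 and that of Airn 2. The median over all starts was 6. The Gnas and Plagl1 starts, with the most CpGs before them among those shown, had no listed window nearby: the nearest lay 6.75 kb away for Gnas and 23.7 kb away for Plagl1. The nearest window to the Peg3 start was 20.4 kb away, and that to the Airn start 6.31 kb, within an intron of Igf2r. Igf2r itself, with 27 CpGs before its start, had its nearest window at 34.7 kb, and the upstream start of Grb10, with 40 CpGs, at 9.42 kb. For Peg10 no start sequence was matched, and its nearest window lay 8.20 kb from the 5′ end of the gene. The letters TGCCGC, searched on both strands, were present in the 250 bases before 1 of the 13 starts (Plagl1) and before 8.68% of all starts. Sequence after the starts was neither searched for these letters nor counted for CpGs, so a control region that reaches past a start was not covered.

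The absence of windows at starts with many CpGs before them was shared with other genes. Of 5889 starts with 20 or more CpGs in the 250 bases before them, 1.61% had a listed window within 1000 bp, and of 6507 with 10 to 19 CpGs, 4.61% had one. The members had 5 and 2 starts in these classes, with 0 and 0 windows. Among starts with 5 to 9 CpGs the share was 16.96% over 5837 starts, and both member starts with a window, 1 of Grb10 and 1 of Slc38a4, were among the 4 of this class. No member start with 10 or more CpGs before it thus had a window nearby, like most such starts of the genome.

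**Figure D1:**
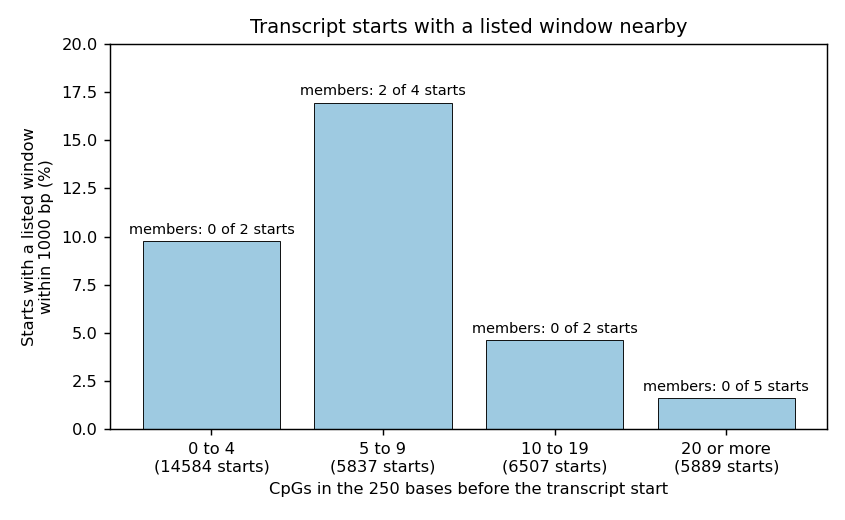
Percentage of annotated transcript starts with a listed window within 1000 bp (y axis), by the number of CpGs in the 250 bases before the start (x axis), for all 32817 starts; the text over each bar gives the member starts of that class. The share is highest at 5 to 9 CpGs (16.96%), the class of both member starts with a window, and lowest at 20 or more (1.61%).

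The start windows themselves differed in level. The Grb10 window (chromosome 11, 12027501 to 12028000) spans an internal start of the gene and is CpG-poor, with 3 CpGs. Its RMS was 1.11 in control sperm, 1.12 after the low dose and 0.814 after the high one, low in all 3 and lowest at the high dose. The Slc38a4 window (chromosome 15, 97019501 to 97020000; exon 2) lies 359 bp downstream of an internal start and holds 22 CpGs. Its RMS was 4.18, 3.79 and 5.11 in the same order, so it was among the most strongly scored member windows in every library. Neither start is the 5′ end of its gene.

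Listed windows lay towards the 3′ ends of these genes. Of the 42, 6 were in the first, 7 in the middle and 29 (69.0%) in the last of 3 equal stretches of the gene, counted 5′ to 3′ along the RefSeq span. Over all genes of 5 kb or more the same shares were 22.2%, 31.8% and 46.0% of 70742 windows. By the deposited annotation 25 windows overlapped an exon and 17 were intronic, and none was upstream or downstream of its gene. Exonic member windows had a median control RMS of 2.49 and intronic ones of 1.38, against 1.87 and 1.68 for all exonic and all intronic windows. The number of 500 bp tiles of a gene that were listed ranged from 1 of 83 in Plagl1 to 12 of 123 in Slc38a4, 42 of 1043 (4.03%) in all, against 3.53% of tiles over 27676 RefSeq genes of 10 or more tiles. The median share per gene was 3.58% for the members and 1.65% for those genes. All 8 members had a listed window, while the RefSeq genes were counted with or without one. The shares are therefore not like for like, and no conclusion is drawn from their difference.

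**Figure D2:**
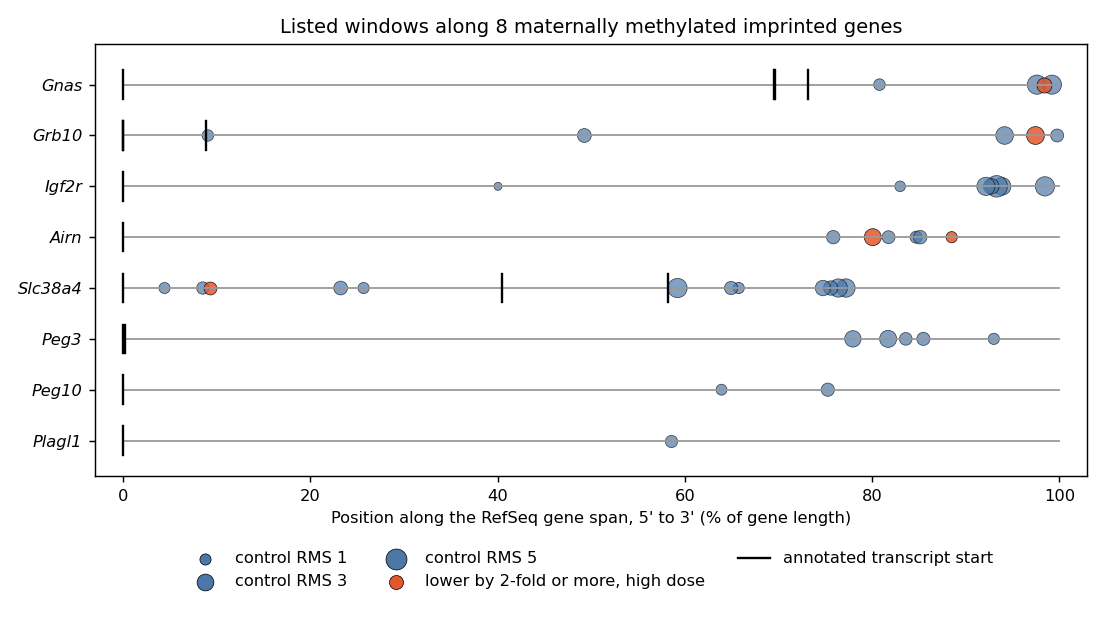
Position of each listed window along its gene (x axis, percent of the RefSeq span from the 5′ end), 1 line per gene; circle area grows with control RMS, vertical bars are annotated transcript starts, and orange circles are windows lower by 2-fold or more at the high dose. Windows gather in the last of 3 equal stretches (29 of 42), and the 5′ end of Slc38a4 has the nearest window, 2.46 kb away.

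Change was taken as log2((dose RMS + c)/(control RMS + c)), with c at 0.766, the 10th percentile of RMS values above 0; it understates the change of low windows. A window was called lower or higher where this value reached 1 in either direction (2-fold). At the high dose 5 of the 42 windows were lower, in Airn (2), Gnas, Grb10 and Slc38a4, where 2.52% of all windows were, and 0 were higher, against 0.0824% of all. At the low dose 1 was lower, in Grb10, and 0 were higher, against 1.24% and 0.12% of all windows. The filter of the table bears on these counts: 2 of the 5 lower windows had RMS above 1 in the control library alone, and such a window had to be below control to be listed in this form. Among the 26 member windows with RMS above 1 in all 3 libraries 1 was lower at the high dose, against 0.281% of 93740 windows. The counts describe these 3 libraries and are no evidence about the genes as a class.

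The median change over the 42 windows was -0.24 at the high dose and -0.03 at the low dose, beside -0.10 and -0.05 over all windows. At the high dose 31 of 42 (73.8%) were below control, against 60.8% of all windows. Windows annotated to any gene had 64.0% below control and a median of -0.14 at that dose. In the 33 further genes at or beside maternally methylated regions that are described below, 102 of 138 windows (73.9%) were below control, with a median of -0.22. The share is thus not particular to the members. With the window of highest mean RMS from each gene alone, the high dose median was 0.05, of opposite sign. Scaling by library medians moved the median of all windows by over 0.1, to 0.04 at the high dose; the member median was then -0.10.

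**Figure D3:**
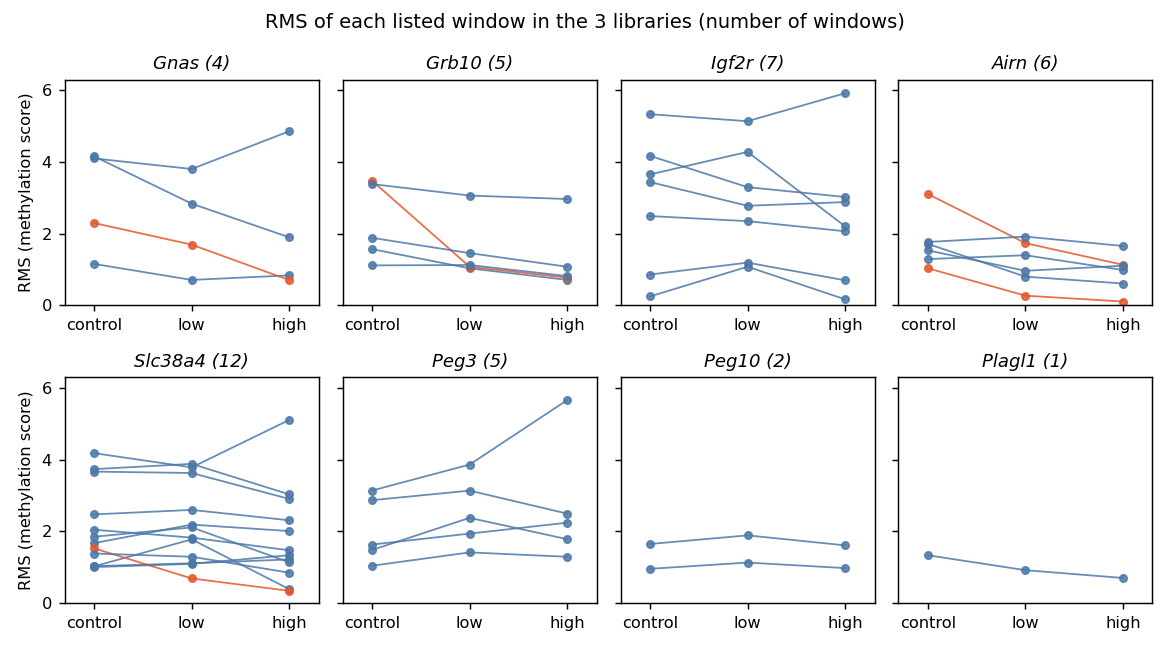
RMS (y axis) of every listed window by library (x axis: control, low dose, high dose), 1 panel per gene with its number of windows in brackets; lines join the values of 1 window, and orange marks windows lower by 2-fold or more at the high dose. The windows of Peg3 are above control at the low dose in all 5 cases, as are 62067 of all 143198 windows. Those of Grb10 and Airn are below control at the high dose in all 5 and all 6, as are 60.8% of all windows.

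Grb10 (ENSMUSG00000020176) encodes an adaptor protein that binds the insulin and IGF1 receptors and restrains growth; it is expressed from the maternal copy in most tissues and from the paternal copy in neurons. Its 3′ end held the member window with the largest change at either dose (chromosome 11, 11933001 to 11933500; exonic, numbered 14 to 17 across transcripts; 15 CpGs). RMS there was 3.48 in control sperm, 1.07 after the low dose and 0.769 after the high one, changes of -1.21 and -1.47. Both treated libraries were low and the control library was high, and RPM followed, at 2.57, 0.768 and 0.517.

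The next window upstream in the gene (11936501 to 11937000; exonic) had RMS 3.38, 3.06 and 2.97, so that a control level as high was kept within a change of -0.15 at the high dose. The last window of the gene (11930501 to 11931000) had 1.57, 1.03 and 0.707, and an intronic window (11984501 to 11985000) 1.88, 1.46 and 1.07. Together with the start window above, all 5 Grb10 windows were below control at the high dose, with changes from -1.47 to -0.15. At that dose 60.8% of all windows were also below control.

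Igf2r and Airn form 1 imprinted cluster on chromosome 17. Igf2r (ENSMUSG00000023830) encodes the receptor that takes up and clears IGF2 and carries mannose 6-phosphate-tagged enzymes to lysosomes; it is expressed from the maternal copy. Airn (ENSMUSG00000078247) is a noncoding RNA that starts within Igf2r, runs antisense to it, and silences Igf2r on the paternal copy. Of the 7 Igf2r windows 0 passed the limit at either dose. The strongest (12688001 to 12688500; exon 44; 19 CpGs) had RMS 5.34 in control sperm, 5.14 after the low dose and 5.92 after the high one, the highest level of any member window in each library.

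Adjacent Igf2r windows differed in their change. The neighbour in exon 43 (12689001 to 12689500) had RMS 3.65, 4.28 and 2.20, a change of -0.57 at the high dose, while exon 44 sequence between them (12688501 to 12689000) had 2.49, 2.35 and 2.07. An intronic window (12734501 to 12735000), the nearest to both the Igf2r and the Airn start, was listed on the low dose library alone. Its RMS was 0.244 in control sperm, 1.08 after the low dose and 0.164 after the high one. The changes of the 7 windows ranged from -0.28 to 0.87 at the low dose and from -0.57 to 0.13 at the high dose.

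All 6 Airn windows were intronic and lay 89.9 to 104.9 kb from its start, beyond the end of the overlap with Igf2r. The strongest (12836001 to 12836500; 11 CpGs) had RMS 3.11 in control sperm, 1.73 after the low dose and 1.13 after the high one, a change of -1.03 at the high dose. It was the 1 lower member window with RMS above 1 in all 3 libraries. The window farthest from the start (12846001 to 12846500) had RMS 1.03, 0.266 and 0.103, a change of -1.05, on RPM of 0.771, 0.217 and 0.0862. Its control level was close to the lower edge of the table, and RMS was above 1 in the control library alone. Of the windows annotated to Airn, that nearest to its start (12831001 to 12831500), also listed on the control library alone, had 1.71, 0.798 and 0.606.

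The other 3 Airn windows (within 12838001 to 12842500) had changes from -0.30 to -0.07 at the high dose. The 3 windows from 12841501 on are also annotated to Mas1, a G protein-coupled receptor gene, so that the change at 12846001 belongs to both annotations. In Slc22a3 and Slc22a2, the organic cation transporter genes of the same cluster, 7 and 2 windows had medians of -0.52 and -0.73 for the high dose, with 0 past the limit.

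Gnas (ENSMUSG00000027523) encodes the stimulatory G protein alpha subunit and, from alternative starts imprinted in different directions, further products. Its 4 windows lay 80.8% to 99.2% along the span, and all of them also overlap Gm20721, a predicted gene. Of these, 3 are adjacent at the 3′ end (chromosome 2, 174345001 to 174346500). The first (22 CpGs) had RMS 4.16 in control sperm, 2.84 after the low dose and 1.89 after the high one, a change of -0.89. The second (174345501 to 174346000; 11 CpGs) had 2.297, 1.69 and 0.700, a change of -1.06, past the limit. The third (174346001 to 174346500; 20 CpGs) had 4.10, 3.81 and 4.86, slightly above control at the high dose. The high dose library was thus low in the first and second of the adjacent windows and not in the third. The 4th window, intronic (174334501 to 174335000), had 1.15, 0.706 and 0.834 and was listed on the control library alone.

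Slc38a4 (ENSMUSG00000022464) encodes an amino acid transporter of placenta and liver, and is expressed from the paternal copy in placenta. Its 12 windows included 1 past the limit, in the intronic sequence after its 5′ end (chromosome 15, 97050001 to 97050500; 13 CpGs), with RMS 1.53 in control sperm, 0.683 after the low dose and 0.336 after the high one, a change of -1.06. This window was listed on the control library alone. The adjacent one (97050501 to 97051000) had 1.38, 1.29 and 0.844, lowest at the high dose with a change of -0.41. The window nearest to the 5′ end (97053001 to 97053500) had 1.001, 1.09 and 1.33, in the opposite order. The other 9, among them the exon 2 window described above and 4 adjacent exonic windows (97008501 to 97010500), had changes from -0.64 to 0.25 at the high dose and from -0.12 to 0.51 at the low dose. Across the gene 8 windows were below control at the high dose and 4 above.

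Peg3 (ENSMUSG00000002265) encodes a large zinc finger protein expressed from the paternal copy, with roles in placenta, brain and maternal behaviour, and its 5 windows lay in the 3′ exons (numbered 9 and 10). The strongest (chromosome 7, 6708501 to 6709000; 14 CpGs) had RMS 3.14 in control sperm, 3.87 after the low dose and 5.67 after the high one, a change of 0.72, the highest of any member at that dose. The window beside it (6708001 to 6708500) had 1.48, 2.38 and 1.78, and the next (6707501 to 6708000; 23 CpGs) 1.63, 1.94 and 2.24. The window nearest to the start (6709501 to 6710000) had 2.87, 3.14 and 2.49 and was the 1 of the 5 below control at the high dose. The last (6705501 to 6706000) had 1.04, 1.41 and 1.29. None passed the limit, and all 5 had RMS above 1 in every library.

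Peg10 (ENSMUSG00000092035) derives from a retrotransposon and is needed for placenta formation, and Plagl1 (ENSMUSG00000019817) encodes a zinc finger transcription factor that restrains cell division; both are expressed from the paternal copy. The Peg10 windows (chromosome 6, 4755501 to 4756000 and 4757001 to 4757500) are annotated as exons 1 to 3 of different transcripts and lay 8.44 and 9.94 kb from the 5′ end. The first had RMS 0.952 in control sperm, 1.13 after the low dose and 0.973 after the high one, and the second 1.65, 1.89 and 1.61. Both were highest at the low dose, and their high dose values were close to control, with changes of 0.02 and -0.02. The single Plagl1 window (chromosome 10, 13114501 to 13115000; intronic; 11 CpGs) had 1.33, 0.914 and 0.696, a change of -0.52, and was listed on the control library alone.

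Changes also followed read density over the whole table. In the bin of windows with median mean RPM 0.525, the lowest of 20, high dose changes had a median of -0.60, and in the bin at 10.5, the highest, of 0.15. Against windows of like density, the changes of the 5 lower windows became -1.20 in Grb10, -0.86 and -0.45 in Airn, -0.77 in Gnas and -0.45 in Slc38a4, so that 1 of them, that of Grb10, stayed past the limit. The part of read density in the others was not tested further. The strongest Peg3 window was 0.71 above windows of like density, and the first of the adjacent Gnas windows 0.82 below them. At the high dose the Grb10 start window was 0.11 above such windows, though below control. Likewise, the Airn windows at 12841501 and 12842001 were 0.001 and 0.17 above them. The remaining Grb10 and Airn windows were below windows of like density.

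**Figure D4:**
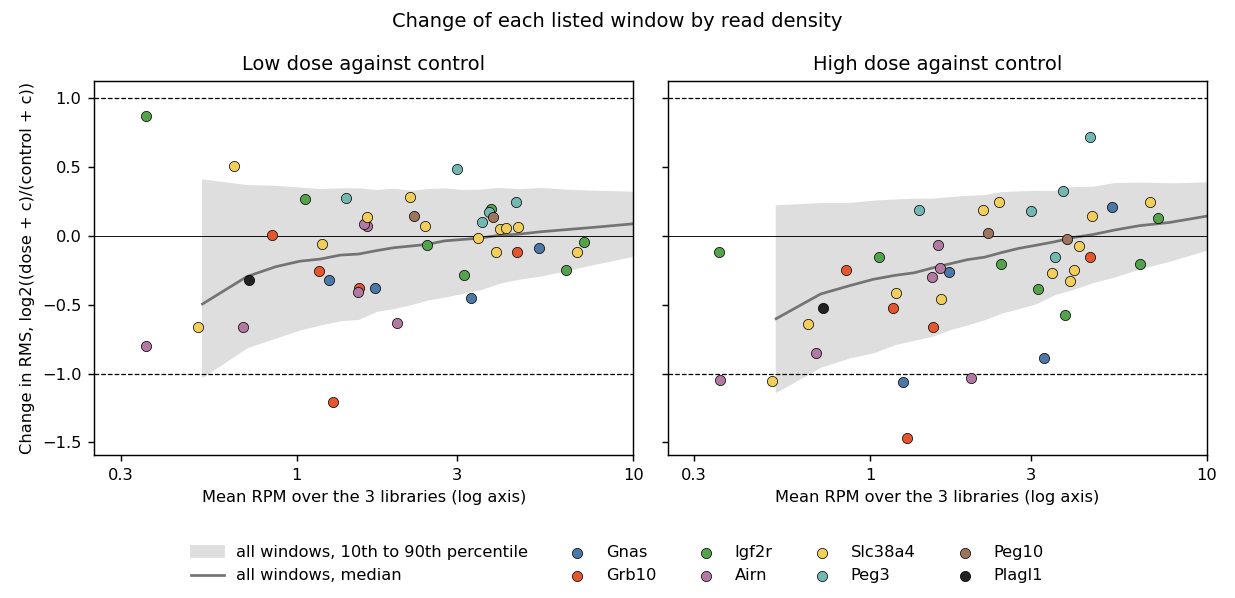
Change in RMS against control (y axis, log2 scale) of each of the 42 windows by mean RPM over the 3 libraries (x axis, log scale), at the low dose and the high dose; the grey band and line give the 10th to 90th percentile and the median of all windows in 20 bins of mean RPM, and dashed lines the limit of 1. The Grb10 window is the lowest point in both panels, at -1.21 and -1.47, and a Peg3 window at 0.72 the highest at the high dose.

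Other imprinted genes were set beside the members. Of 33 further genes at or beside maternally methylated regions 15 had windows, 138 in all, with a median of -0.22 at the high dose. At that dose 4 (2.90%) were lower and 0 higher, against 2.52% and 0.0824% of all windows. At the low dose 4 (2.90%) were lower and 0 higher, against 1.24% and 0.12%. RMS was above 1 in the control library alone in 25 of the 138 (18.1%), against 14.3% of all windows. Start sequence was matched for 26 of the 33, and their 35 starts had 0 listed windows within 1000 bp; Kcnq1, Trappc9 and Sgce, which hold 89 of the 138 windows, were not among the 26. The paternally methylated list, of which Zdbf2 is also in the other, holds genes at or beside regions methylated in sperm. The list took every window annotated to these genes and was not restricted to those regions. It had windows in 7 of 7 genes, 34 in all, with a median of -0.06 for the high dose. None (0) passed the limit at either dose, beside the shares of all windows given above. RMS was above 1 in all 3 libraries in 29 of the 34, and of all such windows 0.281% were lower at the high dose. A count of 0 in so few does not set these windows apart. Their median control RMS was 2.54, against 1.74 for the members, and 2 of the 10 starts matched for 5 of the genes (not H19 or Rtl1) had a window within 1000 bp. H19, a noncoding RNA gene of this group, had 3 windows. In control, low dose and high dose order their RMS was 2.94, 2.68 and 1.99 at 142575501 and 5.58, 5.94 and 5.65 at 142576501. At 142577001 it was 1.04, 1.24 and 1.52. The high dose changes were -0.43, 0.02 and 0.34. Of 7 germline genes whose promoters are methylated in somatic cells and not in sperm, 0 of 7 starts had a listed window in reach, which at 8.55% of all starts does not check the tissue. The 1 gene among them with windows, Ddx4, a germ cell RNA helicase gene, had 2, both outside that reach, with changes of -0.99 and -0.69 at the high dose. Both had RMS above 1 in the control library alone, and such windows had to be below control to be listed in this form.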

How the data were processed

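MBD-seq was made from sperm DNA sonicated to about 300 bp, with 1 library per group. The authors deposited RPM per 500 bp window, 2 scores (RMS and AMS, not spelled out) and the ratio of low dose to control RMS, which was not used; windows were annotated to Ensembl transcripts dated 2013, with 500 bp as upstream and downstream reach, per the file headers. Coordinates are those of mm10, a build taken from the submitters' processing notes; for the aligner and filters, the sources used here give nothing. Reads behind a window are unknown: deposited RPM values came in steps (0.0214 for control, 0.0197 for low dose, 0.0216 for high dose), but no header gives the reads in a step, so no counting interval is given.

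The 297037 lines were reduced to 143198 windows. Transcript starts, spans and sequences were taken from RefSeq tables of GRCm38.p6, the assembly that mm10 names; 12562 of 15181 gene symbols matched. Distances along a gene are to the middle of a window, and distances to a start are to its nearest edge. Computation used Python 3.11.15, pandas 2.3.3 and numpy 2.4.6 and was tested on simulated data. No test was possible with 1 library per group. All 8 genes are named; every window is given for genes with 5 or fewer, otherwise the strongest, that nearest to a start and those past the limit, and further ones named for their place or chosen after their values were seen. The members and lists were chosen with earlier results of these data known. Alternatives were the pseudocount, scaling, measure, filter, limit, trend with read density, and choice of windows.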

Additional observations from a re-analysis of the deposited data

How the results depend on the processing

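At the high dose the number of lower member windows, 5 as reported, was 8 with the pseudocount divided by 3 and 0 with it multiplied by 3, 1 after division by library medians, after quantile normalization, with the trend in read density subtracted or with RMS above 1 required in all 3 libraries, and 3 with RPM in place of RMS. A limit of 1.5-fold gave 9 lower and 1 higher. Without windows shared with another gene, an alternative chosen after seeing the data, 3 were lower. The median change of -0.24 became -0.14 with the pseudocount multiplied by 3, -0.0975 after division by library medians, -0.12 after quantile normalization, -0.0889 with the trend subtracted, -0.11 with RMS above 1 in all 3 libraries and 0.0548 with 1 window per gene.

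At the low dose the single lower window, that of Grb10, was joined by 1 more (2 in all) and by 1 higher window with the pseudocount divided by 3. None was lower (0) with it multiplied by 3 or with RMS above 1 in all 3 libraries. Quantile normalization and the trend each gave 1 higher window, and the 1.5-fold limit 5 lower and 1 higher. The median of -0.03 turned to 0.0597 after division by library medians, 0.0015 after quantile normalization, 0.0093 with RPM, 0.0232 with the trend subtracted, 0.0506 with RMS above 1 in all 3 libraries and 0.0072 without shared windows, and was -0.1032 with 1 window per gene, so it has no stable sign. Requiring an exon or intron changed nothing, since all members have one.

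Of the lower windows at the high dose, that of Grb10 was the 1 that stayed past the limit after division by medians, quantile normalization and trend subtraction, with changes of -1.34, -1.33 and -1.20, and it was at -0.91 with the pseudocount multiplied by 3. Over all 42 windows, 5 changes turned sign at the high dose and 2 at the low dose with the trend subtracted; the other settings turned between 0 and 5 at each dose. Single windows were followed for the 24 that the naming rule took. Among these, small changes that turned sign at the high dose were those of Grb10 at 11936501 (0.0074 after division by medians) and at 12027501 (0.0241 after quantile normalization and 0.1124 with the trend subtracted). Further ones were those of Igf2r at 12734501 (0.3106 and 0.4828 under the same settings) and Peg10 at 4757001 (0.1129 after division by medians, 0.123 after quantile normalization and 0.0159 with RPM). At the low dose they were those of Grb10 at 12027501 (-0.1206 with RPM), Igf2r at 12688001 (0.0481 after division by medians and 0.0052 with RPM) and Gnas at 174346001 (0.0012 after division by medians). The cause of these differences was not tested. No paired analysis was possible because each group has 1 library. With the depth per window unknown, differences at low RPM cannot be given a counting error.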
